A study of Mus musculus with 20 samples.

Results

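The 10 gut peptide hormone genes described here are Pyy, Ghrl, Gcg, Cck, Sct, Gip, Nts, Sst, Tac1 and Insl5, chosen by name among the 27573 genes on the array. They were measured by 16 probes, of which 12 were kept, and all 10 genes were among the 17072 tested. RNA pools from Spdef knockout (KO, Spdef-/-) and wild type mice were compared on 20 two-colour arrays, each carrying both genotypes, and every pair was run with the dyes both ways round. The pools were whole small intestine or whole colon from adult mice (P30) or fetuses (E18.5), with 2 to 3 littermates each. Adult small intestine and fetal colon gave 2 pairs each, and adult colon and fetal small intestine 3 pairs each. No strain or sex was named in the labels, and the KO pools are described only as Spdef knockout.

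Peptide hormones of the gut are made by enteroendocrine cells, scattered secretory cells of the epithelium that release them into the blood or onto nearby nerves in response to a meal. Different hormones dominate in different regions: ghrelin, cholecystokinin, secretin and GIP towards the stomach and upper small intestine, and glucagon-like peptides, peptide YY and INSL5 towards the ileum and colon. Spdef encodes an ETS family transcription factor of the secretory lineage that is best known in goblet and Paneth cells, the mucus and antimicrobial cells of the same lineage.

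The ratios of fetal small intestine pairs 1 and 2 lay within array noise of each other (variance ratio 0.6, against 1.41 to 6.39 between other pairs of a group), so they count as 1 sample and 9 replicates remain. The log2 ratio of Spdef itself, KO over wild type, ran from -4.09 to -1.20 and was below 0 on 20 of 20 arrays. The share of probes well above background ran from 39.7% to 71.6% by array and dye, and the small number of replicates limits the precision. Nothing in the labels shows whether pools of a group came from separate litters, so p-values measure only the spread between these pools.

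The regional genes of 2 fetal pairs went against their labels, in the KO and the wild type channel alike. In the wild type pool labelled fetal small intestine 3, the hindgut gene Hoxb13 had a log2 level of 11.64, near the 11.15 of fetal colon 2, and the lactase gene Lct was at 8.76. In the wild type pool labelled fetal colon 1, Hoxb13 was at 6.99 and Lct at 16.37, near the 16.06 of Lct in fetal small intestine 2. Across all genes tested, the first pool correlated best with fetal colon 2 (r = 0.988) and the second with fetal small intestine 1 (r = 0.993), which describes likeness and is not a test. Both pairs lay on 1 slide. They are kept here under their labels, named as labelled, and results for the hormones and for the list genes named are also given without them. Each fetal group then keeps 1 replicate, so no spread between fetal pools enters the fit.

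**Figure D1:**
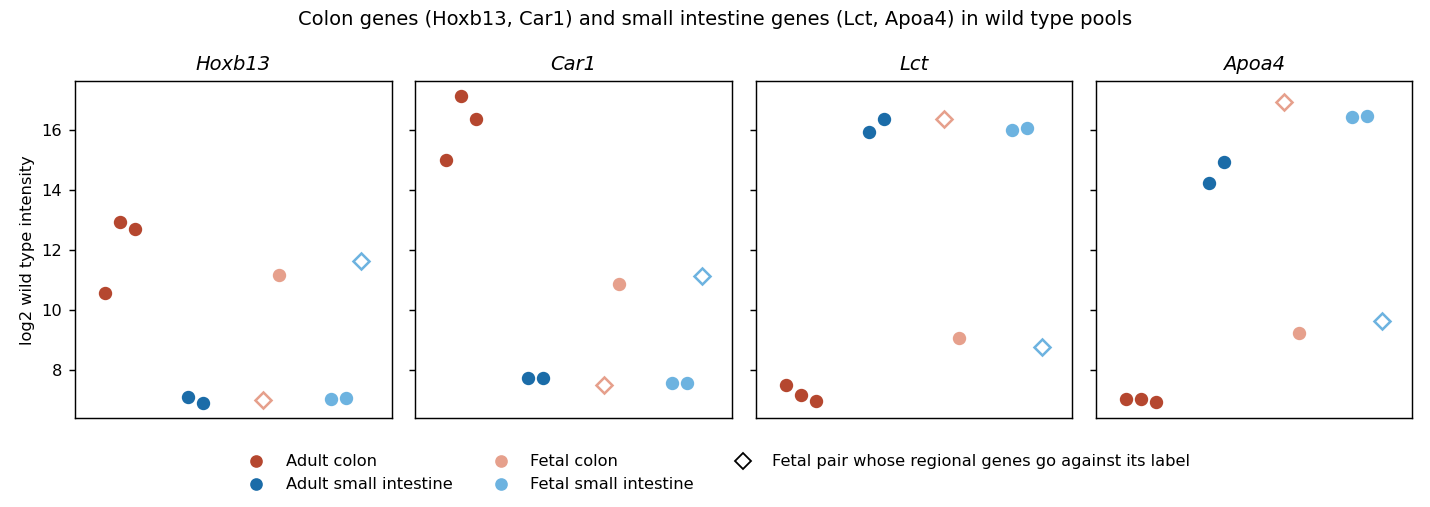
Log2 wild type intensity of 2 colon genes (Hoxb13, Car1) and 2 small intestine genes (Lct, Apoa4), with 1 point for each wild type pool, grouped by label. The open diamond labelled fetal small intestine lies with the colon pools and the open diamond labelled fetal colon lies with the small intestine pools in all 4 panels.

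Pyy, Ghrl and Gcg rose in KO pools over the mean of the 4 groups. Peptide YY, the product of Pyy, slows gut transit and reduces appetite. Ghrelin, the product of Ghrl, stimulates appetite, and Gcg encodes proglucagon, the precursor of the glucagon-like peptides. The mean log2 ratio of KO over wild type was 0.59 ± 0.031 for Pyy (SE, n = 9 replicates, adjusted p = 0.000104, 1.51-fold). It was 0.72 ± 0.103 for Ghrl (adjusted p = 0.0138, 1.65-fold) and 0.48 ± 0.057 for Gcg (adjusted p = 0.00689, 1.39-fold). Thus 3 of 10 hormone genes passed as higher, where 0.533% of all genes tested did so, and 1.79% passed in either direction. All 10 estimates were above 0, with a median of 0.32 (all genes tested: median -0.0022, 48.4% above 0).

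The other 7 genes did not pass. Sct, the gene of secretin, had a mean log2 ratio of 0.54 ± 0.12 (adjusted p = 0.0678) and Cck, the gene of cholecystokinin, one of 0.42 ± 0.089 (adjusted p = 0.0634). The remaining 5 had mean log2 ratios of 0.04 (Tac1) to 0.22 (Insl5), with adjusted p from 0.196 to 0.858. In bulk tissue, more enteroendocrine cells and more hormone RNA per cell cannot be told apart. With a prior on the spread that followed intensity, none of the 3 genes passed (Pyy adjusted p = 0.191, Ghrl 0.23, Gcg 0.196), at the same estimates. With median centring in place of loess, Pyy (log2 0.515, adjusted p = 0.0945) and Gcg (0.397, adjusted p = 0.619) did not pass. Without the 2 fetal pairs that went against their labels, Pyy passed (log2 0.60, adjusted p = 0.0086), Ghrl (0.79, adjusted p = 0.0582) and Gcg (0.47, adjusted p = 0.106) did not, and 0.269% of all genes passed.

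**Figure D2:**
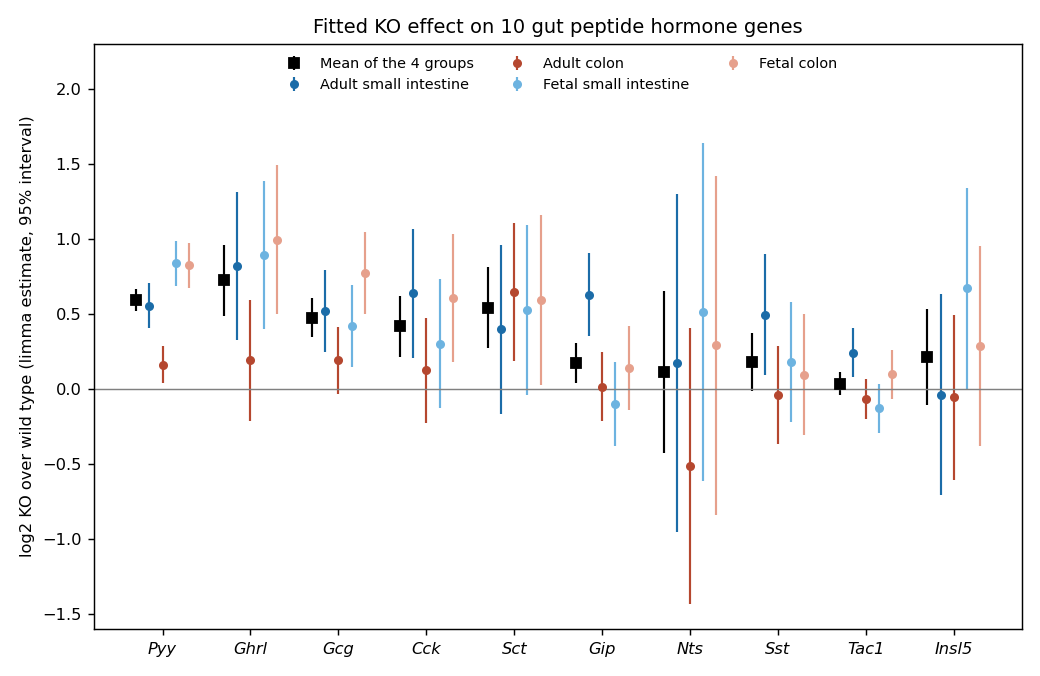
Fitted log2 ratio of KO over wild type for the 10 hormone genes, with the mean of the 4 groups as black squares, each group as a coloured point and bars for the 95% interval of the limma fit. The black intervals of Pyy, Ghrl, Gcg, Cck, Sct and Gip lie above 0, and in adult colon Pyy, Ghrl, Gcg and Cck lie below their own means.

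The sequences before the transcription starts of Pyy and Ghrl are shown because these 2 genes are set against the other hormones and Spdef is a DNA-binding factor. Each is the 250 bases before the most upstream RefSeq start, on the minus strand of GRCm38.p6, written 5′ to 3′ along the gene. Capitals mark GGAT or its complement ATCC, an ETS family core that Spdef is known to bind.
Pyy, chr11:102107833-102108082: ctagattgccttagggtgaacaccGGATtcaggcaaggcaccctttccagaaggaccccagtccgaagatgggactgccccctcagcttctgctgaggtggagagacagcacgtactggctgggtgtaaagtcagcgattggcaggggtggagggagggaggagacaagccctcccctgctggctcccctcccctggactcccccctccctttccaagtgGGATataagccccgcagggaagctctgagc
Ghrl, chr6:113719912-113720161: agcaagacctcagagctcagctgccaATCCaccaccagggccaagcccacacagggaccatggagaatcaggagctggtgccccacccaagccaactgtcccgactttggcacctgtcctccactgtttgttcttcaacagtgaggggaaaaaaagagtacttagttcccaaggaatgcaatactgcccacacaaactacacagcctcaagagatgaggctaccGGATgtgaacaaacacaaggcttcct
Both windows held 2 matches. Of the 10 hormone genes, 7 had at least 1 match in the window (Nts had 6), and so did 74.3% of 27025 genes, with a median of 1 match. A match describes the letters of the window and is not a binding site.

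Pyy was read by a probe on chromosome 11, positions 101922766 to 101922825 (mm8). In adult small intestine its log2 level was 13.06 and 12.32 in KO pools 1 and 2, against 12.44 and 11.83 in the wild type pools. In fetal small intestine it was 13.77, 13.86 and 15.96 in KO pools 1, 2 and 3, against 12.90, 12.97 and 15.17 in the wild type pools. In fetal colon it was 13.80 and 16.26 in the KO pools, against 12.96 and 15.45 in the wild type pools. Each KO pool of these 3 groups thus stood above the wild type pool of its pair, while the genotypes overlapped over the pools of each group. The log2 ratio was 0.62 and 0.49 in the adult small intestine pairs and between 0.79 and 0.89 in the 5 fetal pairs, so that the pairs which went against their labels (0.79 and 0.84) were close to the others.

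In adult colon, Pyy was at 15.55, 15.20 and 15.17 in KO pools, against 15.50, 14.93 and 14.99 in wild type pools. The ratios there were 0.04, 0.27 and 0.18, all above 0 and all below those of the 7 other pairs. The lowest, 0.04, came from adult colon pair 1, whose arrays had 39.7% and 67.6% of wild type probes well above background. The part of array quality in this ratio was not tested. Pyy rose in adult small intestine (log2 0.55 ± 0.065, n = 2, adjusted p = 0.012), fetal small intestine (0.84 ± 0.065, n = 2, adjusted p = 0.00209) and fetal colon (0.82 ± 0.065, n = 2, adjusted p = 0.00339). It did not pass in adult colon (0.16 ± 0.053, n = 3, adjusted p = 0.095). Of all genes, 0.398% passed in adult small intestine, 0.439% in fetal small intestine, 0.287% in fetal colon and 9.59% in adult colon. Pyy was the 1 of 10 hormone genes to pass in each of the first 3, and 0 of 10 passed in adult colon, where Pyy and Sct had an unadjusted p under 0.05.

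The second Pyy probe gave ratios of 0.52 to 0.74 in the 6 replicates outside adult colon and 0.11 to 0.28 in adult colon. With the mean of both probes, Pyy passed in adult colon (log2 0.18, adjusted p = 0.0405). Without the 2 fetal pairs that went against their labels, the Pyy ratios were 0.55, 0.88 and 0.81 in adult small intestine, fetal small intestine and fetal colon, and none passed (adjusted p = 0.0974, 0.0803 and 0.0987), where 0.158%, 0.082% and 0.164% of all genes did. The adult small intestine call was also lost without replicate 1 (log2 0.49, adjusted p = 0.0988) and without replicate 2 (0.62, adjusted p = 0.0617) of that group.

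The effect on Pyy was smaller in adult than in fetal colon by the test of the difference (log2 -0.66 ± 0.084, adjusted p = 0.0267, where 0.633% of all genes passed). This call was lost without both fetal pairs that went against their labels (-0.65, adjusted p = 0.232, where 0.00586% of all genes passed). It was also lost without the pair labelled fetal colon 1 (-0.65, adjusted p = 0.183), fetal colon pair 2 (-0.68, adjusted p = 0.149), adult colon pair 1 (-0.60, adjusted p = 0.0927) or adult colon pair 3 (-0.67, adjusted p = 0.0537). With replicate number as a block the difference was -0.65 (adjusted p = 0.0532). Adult colon pair 3 and fetal colon pair 2 shared a slide, and within it the difference was -0.63. The difference between adult small intestine and adult colon (0.39 ± 0.084, adjusted p = 0.19) and that between adult and fetal small intestine (-0.28 ± 0.092, adjusted p = 0.285) did not pass. For these 2 differences, 0.158% and 0.258% of all genes passed.

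**Figure D3:**
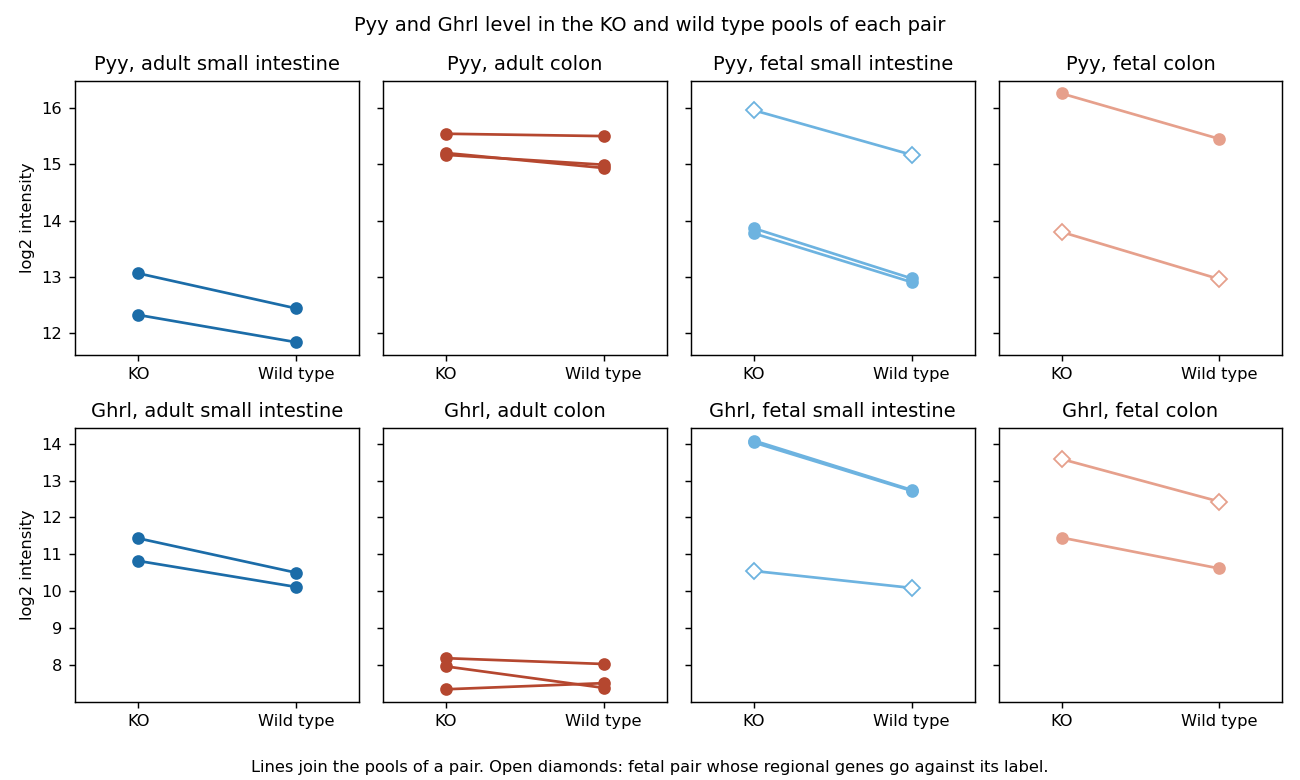
Log2 intensity of Pyy (top) and Ghrl (bottom) in the KO pool (left) and wild type pool (right) of each pair, with a panel for each group and a line for each pair. In all 10 Pyy lines the KO end is the higher, with the flattest lines in adult colon, and 1 Ghrl line, in adult colon, runs the other way.

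Ghrl was read by a probe on chromosome 6, positions 113682031 to 113682873 (mm8), as the files give the span. In adult small intestine its log2 level was 10.82 and 11.43 in KO pools, against 10.12 and 10.50 in wild type pools. In fetal small intestine it was 14.03, 14.09 and 10.55 in KO pools 1, 2 and 3, against 12.72, 12.75 and 10.09 in wild type pools. In fetal colon it was 13.58 and 11.45 in KO pools, against 12.43 and 10.62 in wild type pools. The genotypes did not overlap in adult small intestine, and in each of these 7 pairs the KO pool was the higher. In adult colon, where the gene was dim, KO pools stood at 8.18, 7.96 and 7.34, against 8.02, 7.38 and 7.50 in wild type pools, and the third pair ran the other way.

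The log2 ratios of Ghrl lay between 0.46 and 1.34 outside adult colon and were 0.16, 0.58 and -0.17 within it. The largest were 1.31 and 1.34 in fetal small intestine pairs 1 and 2 and 1.15 in the pair labelled fetal colon 1, which carried a small intestine profile. No single group passed, with fitted ratios of 0.82 ± 0.22 in adult small intestine (adjusted p = 0.207), 0.19 ± 0.18 in adult colon (0.527), 0.995 ± 0.22 in fetal colon (0.211) and 0.89 ± 0.22 in fetal small intestine (0.219). The call over the mean of the groups was lost with the scanner's processed signals (log2 0.85, adjusted p = 0.0544) and with the series table (0.84, adjusted p = 0.0932). It was also lost without adult small intestine replicate 2 (0.70, adjusted p = 0.053), adult colon replicate 1 (0.73, adjusted p = 0.0511) or the pair labelled fetal colon 1 (0.69, adjusted p = 0.0691).

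Ghrelin is made mainly in the stomach, so stomach genes were read beside it. In the 3 fetal pools with the highest Ghrl, the log2 of the summed intensity of 7 stomach genes was 10.96, 10.97 and 10.95 in KO pools, against 11.58, 11.66 and 12.28 in wild type pools. For fetal small intestine replicate 1 and the pair labelled fetal colon 1, the log2 ratios were -1.30 and -2.14 for Tff2, -0.93 and -1.81 for Gkn3 and -0.24 and -0.81 for Tff1, while those of the other 4 stomach genes were between 0.035 and 0.055. The median log2 ratio of the 7 genes ranged from -0.06 to 0.07 over the 9 replicates, but single genes moved more. In adult replicates, Tff2 had log2 ratios of 0.44 and -0.76 in small intestine and -1.1, 0.56 and -1.64 in colon. The part of the stomach genes in the Ghrl result was not tested.

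Pyy and Ghrl were set against the other 8 hormones in each replicate. Some of the 8 had low signal. Wild type Gip was at log2 7.05 to 7.28 in adult colon, the pair labelled fetal small intestine 3 and fetal colon 2. Wild type Insl5 was at 7.59 and 7.74 in adult small intestine. The part of low signal in the medians was not tested. The median log2 ratio of the other 8 was 0.32 and 0.555 in the adult small intestine replicates and 0.002, -0.09 and 0.35 in adult colon. It was 0.435 and 0.28 in the fetal small intestine replicates and 0.41 and 0.27 in those of fetal colon. Pyy lay above that median in 7 of 9 replicates, by 0.04 to 0.53, and below it in adult small intestine 2 (-0.07) and adult colon 3 (-0.18). Ghrl lay above it in 8 of 9 replicates, by 0.15 to 0.89, and below it in adult colon 3 (-0.52). In adult small intestine 1, fetal small intestine 1 and adult colon 2, both were above all 8 others. The 8 others were themselves mostly above 0 outside adult colon (6 to 8 of 8 per replicate, against 2 to 6 of 8 in adult colon), while the median of all genes lay between -0.01 and 0.02 in every replicate.

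**Figure D4:**
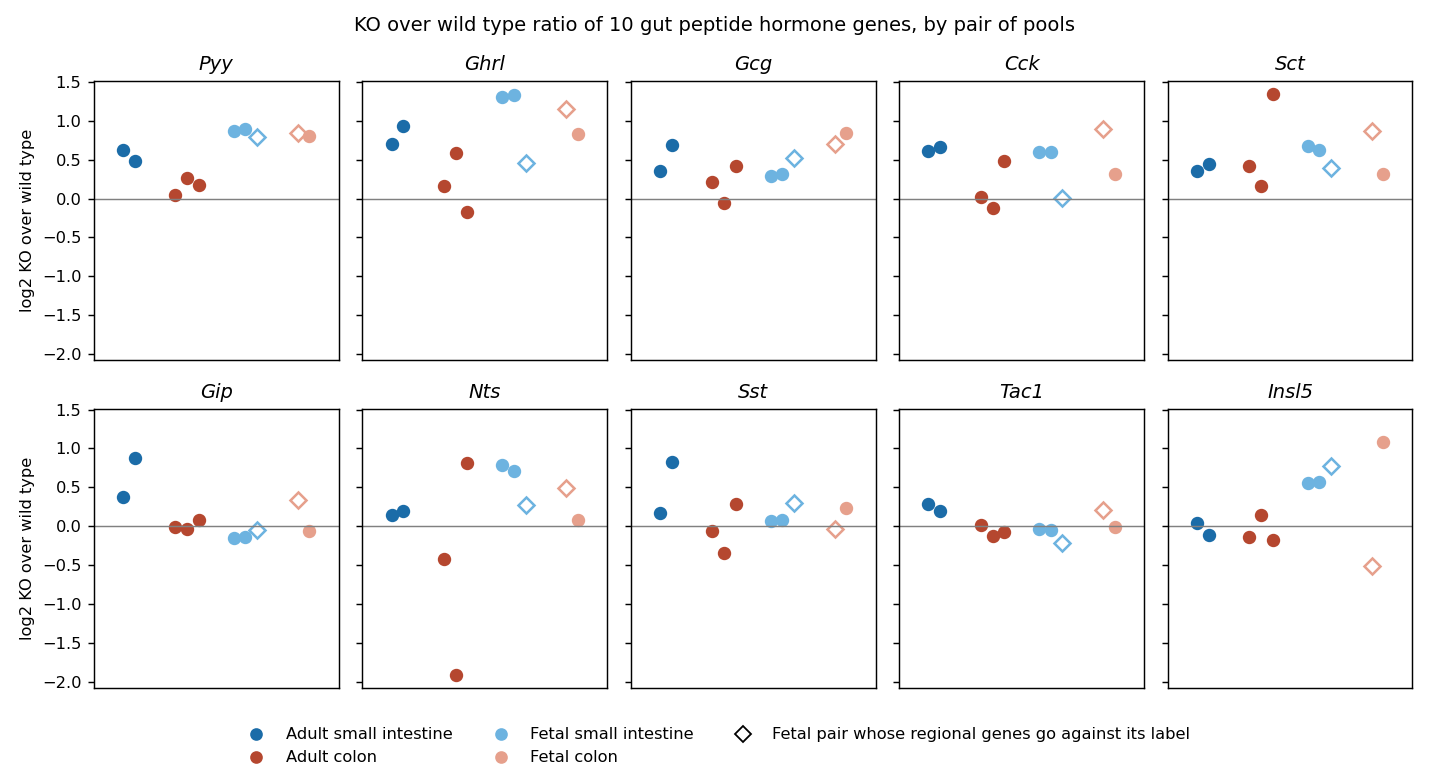
Log2 ratio of KO over wild type for each of the 10 hormone genes, with 1 point for each pair of pools (mean of both dye orders) and open diamonds for the 2 fetal pairs that went against their labels. Pyy and Sct are above 0 in all 10 pairs, and Nts in adult colon spans from -1.92 to 0.81.

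Pyy and Sct were the 2 hormone genes with a higher KO signal in all 9 replicates, which 0.627% of all genes showed. Sct was higher on all 20 arrays, as were 0.0879% of genes, Gcg on 19, Pyy and Ghrl on 18 and Cck and Nts on 16. Tac1 (9 of 20) and Gip (10 of 20) were the least one-sided. These counts describe the pairs and carry no p.

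Gcg and Insl5, like Pyy, are known from the L cells of the ileum and colon. Insl5 encodes a relaxin family peptide of the distal gut. In fetal colon, Gcg was at log2 levels of 11.97 and 12.59 in KO pools, against 11.27 and 11.74 in wild type pools, so the genotypes did not overlap. Gcg in adult small intestine was at 11.76 and 11.74 in KO pools, against 11.40 and 11.05 in wild type pools, again without overlap. In fetal small intestine it was at 12.14, 12.18 and 12.82 in KO pools, against 11.85, 11.86 and 12.29 in wild type pools. In adult colon the levels overlapped, with 12.95, 12.37 and 12.46 in KO pools and 12.73, 12.42 and 12.04 in wild type pools. The ratio was highest in fetal colon (log2 0.77 ± 0.12, adjusted p = 0.0537) and lowest in adult colon (0.19 ± 0.097, adjusted p = 0.245).

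Proglucagon is also made in pancreatic islets, and exocrine pancreas transcripts were detected in adult pools. The log2 of the summed intensity of 12 exocrine pancreas genes was 15.96, 13.02 and 16.25 in adult colon KO pools, against 18.55, 13.31 and 19.09 in wild type pools. In adult small intestine it was 17.68 and 12.86 in KO pools, against 16.74 and 15.56 in wild type pools. The insulin gene Ins2 had log2 ratios of -1.29, 0.01 and -2.14 in the 3 adult colon pairs, where Gcg had 0.21, -0.06 and 0.42. In the fetal pairs the log2 of the summed exocrine intensity was 11.49 to 13.30 in KO pools, against 11.49 to 13.05 in wild type pools. The part of pancreas in the Gcg result was not tested.

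Insl5 differed in direction between pairs. In fetal small intestine it was at 11.60, 11.59 and 15.88 in KO pools, against 11.05, 11.03 and 15.10 in wild type pools. In fetal colon it was at 11.25 and 15.72 in KO pools, against 11.76 and 14.64 in wild type pools. The pair labelled fetal colon 1, which carried a small intestine profile, thus had a ratio of -0.51 and pair 2 one of 1.08. In adult colon the ratios were -0.14, 0.14 and -0.17 at log2 levels of 13.73 to 14.99 in KO pools and 13.88 to 14.84 in wild type pools. Over the mean of the groups the log2 ratio was 0.22 ± 0.14 (adjusted p = 0.492). Without the 2 fetal pairs that went against their labels, which leaves 1 replicate in each fetal group, this mean was 0.39.

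Cck, Sct and Gip are the classical hormones of the upper small intestine, where they act on bile flow, bicarbonate secretion and insulin release. Cck was at 12.55 and 12.60 in KO pools of adult small intestine, against 11.94 and 11.93 in wild type pools, and the genotypes did not overlap. Its log2 ratio was 0.61 and 0.66 there, 0.60 and 0.60 in fetal small intestine pairs 1 and 2, and 0.89 in the pair labelled fetal colon 1. It was 0.01 in the pair labelled fetal small intestine 3 and 0.32 in fetal colon 2. In adult colon, where Cck was well above background on 5 of 6 arrays in either genotype, the ratios were 0.02, -0.12 and 0.48.

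Sct was bright in all pools outside adult colon, with log2 levels of 15.68 to 16.64 in KO pools, against 15.23 to 15.99 in wild type pools. Its ratios there ran from 0.32 to 0.87. In adult colon the gene varied more between pools than between genotypes, with 11.35, 14.13 and 13.94 in KO pools and 10.93, 13.97 and 12.59 in wild type pools. The adult colon ratios were 0.42, 0.16 and 1.35 (log2 0.64 ± 0.20, adjusted p = 0.0813).

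Gip was at 12.04 and 12.87 in KO pools of adult small intestine, against 11.66 and 11.99 in wild type pools, with fitted log2 ratio 0.63 ± 0.12 (adjusted p = 0.0951). Leaving out 1 pool moved this ratio by more than 1.5 times: it was 0.88 without replicate 1, where Gip passed (adjusted p = 0.0442), and 0.38 without replicate 2 (adjusted p = 0.551). Gip also passed with fetal small intestine pairs 1 and 2 kept separate (0.63, adjusted p = 0.0484). In fetal small intestine pairs 1 and 2 its ratios were -0.16 and -0.14, with KO pools at 11.97 and 12.03 and wild type pools at 12.12 and 12.17. The difference between adult and fetal small intestine was 0.73 ± 0.17 and did not pass (adjusted p = 0.169). In adult colon Gip was well above background on 0 of 6 arrays in KO pools and 1 of 6 in wild type pools, so a ratio of 0.02 there compares signals near background.

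Nts encodes neurotensin, a peptide of the distal small intestine that acts on motility and fat uptake. In adult colon its log2 level was 11.18, 9.75 and 10.96 in KO pools, against 11.61, 11.67 and 10.15 in wild type pools, which gave ratios of -0.43, -1.92 and 0.81. Elsewhere all 7 ratios were above 0, from 0.09 to 0.79. Of 5 genes of the distal small intestine, 4 were lowest in pair 2 and highest in pair 3, among them the bile acid transporter gene Slc10a2 with log2 ratios of -0.06, -1.61 and 1.89. The fifth, Fabp6, had -0.16, -0.05 and -0.08, and the median over the 5 genes was -0.16, -0.92 and 1.33. The log2 of the summed intensity of the 5 genes was 12.66, 12.98 and 13.29 in KO pools, against 12.90, 14.49 and 12.10 in wild type pools. Sct (0.42, 0.16 and 1.35) had the same order in these 3 pairs. The part of these genes in the result was not tested.

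Sst encodes somatostatin, which inhibits the release of other hormones, and Tac1 encodes substance P, made by enteric neurons as well as by endocrine cells. Sst in adult small intestine was at 11.04 and 11.39 in KO pools, against 10.88 and 10.57 in wild type pools (log2 0.49 ± 0.18, adjusted p = 0.315). Its ratios in the other 8 pairs ran from -0.34 to 0.29. Tac1 varied least, with ratios between -0.21 and 0.29. It was at 9.90 and 9.46 in KO pools of adult small intestine, against 9.61 and 9.26 in wild type pools (0.24 ± 0.071, adjusted p = 0.242). In adult colon the Tac1 ratios were 0.01, -0.13 and -0.08. There 6 of 9 enteric neuron genes fell, as did 5.66% of all genes, and the median log2 ratio of the 9 was -0.30. With 1 replicate left out, Stmn2 and Uchl1 kept their call in 2 of 9 fits, Nos1 and Snap25 in 4, Elavl4 in 7 and Vip in 8.

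For 9 of the 10 hormones, the fitted ratio was larger in adult small intestine than in adult colon, with a median difference of 0.45. Of all genes, 50.5% had this difference above 0. None of the 10 differences passed in the limma fit (4 had an unadjusted p under 0.05). For 9 of 10 hormones, the fitted ratio was smaller in adult than in fetal colon, with a median difference of -0.41, and Pyy passed. Of all genes, 50.2% had this difference above 0. Both comparisons share the adult colon pairs, so their directions are not independent. Mean wild type levels in adult colon were low for Gip (7.09, near background), Ghrl (7.63) and Cck (8.50). The part of low signal in these counts was not tested. The median hormone ratio was 0.07 in adult colon, against 0.51 in adult small intestine, 0.44 in fetal colon and 0.46 in fetal small intestine. Among all genes, adult colon had the most calls, 1637 of 17072.

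The wider endocrine machinery was read from lists of genes. Of 14 tested markers of enteroendocrine cells (such as the granule proteins Chga and Chgb), 14 lay above 0 in both fetal groups, with medians of 0.15 (small intestine) and 0.13 (colon). The count was 13 in adult small intestine (median 0.08) and 8 in adult colon (median 0.01). None passed over the mean of the groups (median 0.08, against 0.32 for the hormones and -0.0022 for all genes), and 1 of 14, Cpe, fell in adult colon, where 5.66% of all genes did. Without the 2 fetal pairs that went against their labels, 11 of 14 lay above 0 in fetal small intestine (median 0.13) and 13 of 14 in fetal colon (median 0.09). Of 15 transcription factors of the enteroendocrine lineage, 1 passed over the mean, where 1.79% of all genes did. It was Foxa2, a forkhead factor, which rose (0.30 ± 0.053, adjusted p = 0.0362, ratios from -0.268 to 0.505). The Foxa2 call was lost without those 2 fetal pairs (0.28, adjusted p = 0.273) and in 7 of the 9 fits that left out 1 replicate (highest adjusted p = 0.139). Neurog3, which starts the endocrine fate, had ratios from -0.01 to 0.31 and did not pass.

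Of 10 peptide processing genes, 2 fell in adult colon, against 5.66% of all genes: Cpe, the carboxypeptidase that trims prohormones (-0.53 ± 0.12, adjusted p = 0.0334), and the convertase Pcsk2 (-0.19 ± 0.049, adjusted p = 0.0469). Pam, the amidating enzyme, fell in fetal colon (-0.62 ± 0.085, adjusted p = 0.032), with ratios of -0.56 and -0.67, where 0.287% of all genes passed. Pam had ratios of 0.38 and 0.54 in fetal small intestine. Pcsk1, the main convertase of enteroendocrine cells, did not pass, with 8 of 9 ratios above 0. Cpe is also made by neurons, and 6 of 9 enteric neuron genes fell in adult colon. The part of neurons in the Cpe result was not tested. Without the 2 fetal pairs that went against their labels, Cpe passed in adult colon (-0.53, adjusted p = 0.0346). There 5 of 9 enteric neuron genes fell, and 4.56% of all genes passed in either direction. Pcsk2 in adult colon (-0.19, adjusted p = 0.106) and Pam in fetal colon (-0.67, adjusted p = 0.369) then did not pass. With 1 replicate left out, Cpe lost its call in 5 of 9 fits, Pcsk2 in 8 and Pam in 7.

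Of 10 hormone receptor genes tested, 2 fell in adult colon, where 5.66% of all genes did. They were Cckar, the receptor of cholecystokinin (-0.83 ± 0.11, adjusted p = 0.00546), and Npy4r, the receptor of pancreatic polypeptide (-0.425 ± 0.065, adjusted p = 0.00999). Both passed without the 2 fetal pairs that went against their labels (adjusted p = 0.0284 and 0.0294), and Npy4r lost its call without adult colon replicate 1 (-0.35, adjusted p = 0.0565). Cckar ratios were -0.77, -0.55 and -1.17. Cckar is also made by pancreatic acinar cells, whose genes had median ratios of -2.50, -0.02 and -2.95 in these pairs. In pair 2 the log2 of the summed intensity of these acinar genes was 13.02 in the KO pool, against 13.31 in the wild type pool. The part of acinar cells in the Cckar result was not tested.

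Of 17 other gut peptide genes, 2 passed in adult colon, where 9.59% of all genes did. Guca2b, the uroguanylin gene of the epithelium, rose in adult colon (1.02 ± 0.098, adjusted p = 0.00204, ratios of 0.89, 1.08 and 1.09). Vip, the neuropeptide of enteric neurons, fell in adult colon (-0.35 ± 0.054, adjusted p = 0.0104) and over the mean of the groups (-0.16 ± 0.032, adjusted p = 0.0474, where 1.79% of all genes passed). Without the 2 fetal pairs that went against their labels, Guca2b (adjusted p = 0.0104) and Vip (adjusted p = 0.0374) passed in adult colon, and Vip did not over the mean (-0.17, adjusted p = 0.221). The Vip call was lost in adult colon without adult colon replicate 1 (adjusted p = 0.0746) and over the mean in 8 of the 9 fits that left out 1 replicate. The remaining 15 did not pass in adult colon, and Gast, the gastrin gene, had ratios from -0.31 to 0.04.

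In wild type pools, the levels of 9 of 10 hormones did not overlap between adult colon and adult small intestine, and those of Tac1 did. The share of all genes without overlap was not counted. In the limma fit, 9 of 10 hormones and 3096 of 17072 genes had an unadjusted p under 0.05. Adult colon minus adult small intestine was log2 6.81 for Insl5, 3.01 for Pyy, 1.17 for Gcg and 0.26 for Tac1. It was below 0 for Gip (-4.73), Cck (-3.43), Sct (-2.83), Ghrl (-2.67), Nts (-1.73) and Sst (-1.28). In the fit over all pools by their labels, Insl5 passed (± 1.22, adjusted p = 0.0304) and the other 9 did not, where 2.96% of all genes passed. Gip was well above background on 1 of 6 adult colon arrays, so its difference is of signals near background there. No array of adult colon pools 1 and 3 measured it above background, and its signal in adult small intestine was at least 24.4-fold and 27.4-fold higher than theirs. The Insl5 call was lost without either adult small intestine pool (adjusted p = 0.247 and 0.243) or any 1 of the adult colon pools 1, 2 and 3 (0.074, 0.0821 and 0.118). Without the 2 fetal pairs that went against their labels, 6 of 10 passed against 8.54% of all genes: Insl5 (± 0.33, adjusted p = 0.000218) and Pyy (± 0.28, adjusted p = 0.00254) as higher, and Gip (near background in adult colon, adjusted p = 0.000103), Cck (± 0.31, adjusted p = 0.00236), Ghrl (± 0.27, adjusted p = 0.00306) and Sst (± 0.21, adjusted p = 0.0176) as lower in adult colon.

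**Figure D5:**
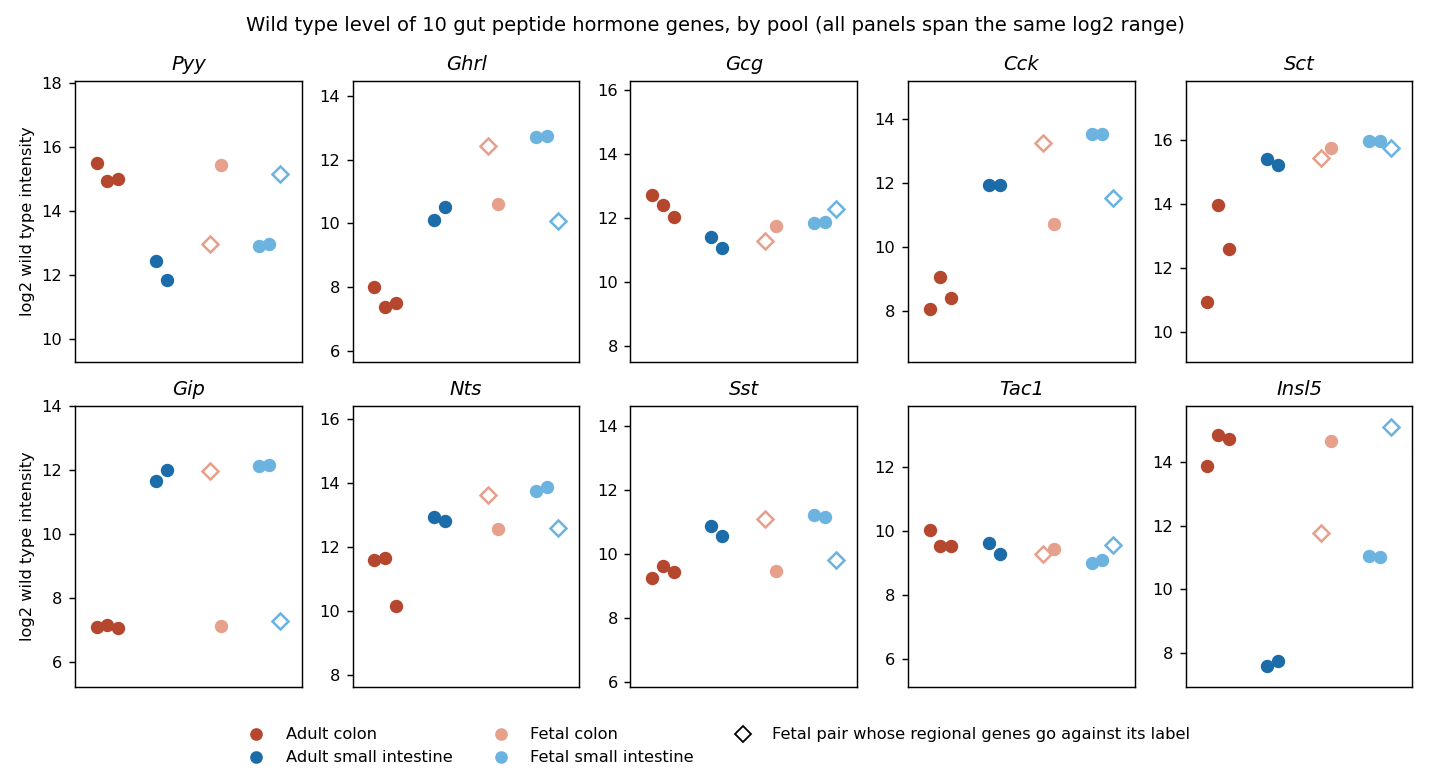
Log2 wild type intensity of the 10 hormone genes, with 1 point for each pool grouped by label and open diamonds for the 2 fetal pools that went against their labels. In adult pools, Pyy and Insl5 are higher in colon than in small intestine and Ghrl, Cck, Sct, Gip, Nts and Sst are lower, with no overlap. Levels can be compared within a panel, not between probes.

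The levels by pool show the same order. Insl5 was at log2 13.88, 14.84 and 14.72 in adult colon, against 7.59 and 7.74 in adult small intestine. Gip was at 7.09, 7.14 and 7.05, near background, in adult colon, against 11.66 and 11.99 in adult small intestine. No pool of one tissue reached the range of the other for either gene. On the slide that held both tissues, adult colon 2 minus adult small intestine 2 was 7.10 for Insl5, 3.10 for Pyy, -3.13 for Ghrl, -2.87 for Cck and -1.26 for Sct, each in the direction seen over all adult pools.

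Among fetal pools the labelled groups overlapped for 9 of 10 hormones, and the share of all genes that overlapped was not counted. By labels, Gcg, at 11.27 and 11.74 in fetal colon, against 11.85, 11.86 and 12.29 in fetal small intestine, did not overlap. Its lowest value (11.27) and its highest (12.29) came from the 2 pools that went against their labels. Without those pairs the Gcg difference, fetal colon minus fetal small intestine, was log2 -0.11. Pyy was at 12.96 and 15.45 in fetal colon pools 1 and 2, against 12.90, 12.97 and 15.17 in fetal small intestine pools 1, 2 and 3. By labels, 0 of 10 hormones differed between fetal colon and fetal small intestine in limma (0 with an unadjusted p under 0.05; 0.00586% of all genes passed). Without the 2 pairs that went against their labels, 1 replicate was left on each side, assumed to vary like the adult pools. Then Gip (not well above background on either array of fetal colon 2, and at least 33-fold higher in fetal small intestine, adjusted p = 0.0022) and Cck (log2 -2.83, adjusted p = 0.0474) were lower in fetal colon, and Insl5 (3.603, adjusted p = 0.0265) and Pyy (2.52, adjusted p = 0.048) were higher, where 2.69% of all genes passed. Ghrl (-2.12, adjusted p = 0.0635) and Sst (-1.71, adjusted p = 0.0583) did not pass.

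Between stages, Ghrl was lower in adult than in fetal colon. It was at 8.02, 7.38 and 7.50 in adult colon, against 12.43 and 10.62 in the fetal colon pools (log2 -3.89 ± 0.80, adjusted p = 0.0284, where 8.77% of all genes passed). Cck (-3.48 ± 0.82, adjusted p = 0.0426) and Sct (-3.11 ± 0.74, adjusted p = 0.0451) passed as lower too. Without the 2 pairs that went against their labels, Ghrl (-2.98, adjusted p = 0.00867) and Cck (-2.20, adjusted p = 0.0276) passed, Sct (-3.27, adjusted p = 0.117) did not, and 8.83% of all genes passed. The calls by labels also depended on single pools. The Ghrl call was lost without adult small intestine 1 or 2, adult colon 2 or 3, or the pair labelled fetal colon 1 (highest adjusted p = 0.116). The Cck call was lost without any 1 adult pool or the pair labelled fetal colon 1 (highest 0.145), and the Sct call without either pool of adult or fetal small intestine or of fetal colon, or adult colon 3 (highest 0.138). Within the slide of adult colon 3 and fetal colon 2, the differences were -3.11 for Ghrl, -2.31 for Cck and -3.18 for Sct.

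In small intestine, no hormone passed by labels between adult and fetal pools, where 8.44% of all genes passed and 2 hormones had an unadjusted p under 0.05. Without the 2 pairs that went against their labels, Insl5 (log2 -3.37, adjusted p = 0.0123) and Ghrl (-2.43, adjusted p = 0.0185) were lower in adult small intestine, where 5.82% of all genes passed. Insl5 was at 7.59 and 7.74 there, against 11.05 and 11.03 in fetal small intestine pools 1 and 2. Pyy (-0.80, adjusted p = 0.297), Gcg (-0.63, adjusted p = 0.384) and Gip (-0.32, adjusted p = 0.537) did not pass.

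Likeness between hormones over the 9 wild type replicates, given as Pearson correlations across pools that share tissue, stage and slide, describes these pools and carries no p. Gip and Sst were most like each other (r = 0.96), as were Ghrl and Cck (0.95) and Pyy and Insl5 (0.94). Nts was most like Cck (0.92), Sct most like Cck (0.86), Gcg most like Pyy (0.83) and Tac1 most like Gcg (0.65). Among all genes tested, the wild type levels most like Pyy were those of Cgnl1, Kctd1 and Actg2 (r = 0.98 to 0.99), and those most like Ghrl were Pipox, Myo7a and Zdhhc19 (0.98). For the KO over wild type ratio, the genes most like Pyy were Hmga2, Ttc32 and Uqcrh (r = 0.96), with standard deviations of 0.13, 0.09 and 0.09 in log2 ratio. Those most like Ghrl were Slc25a47, Txndc11 and Large2 (0.95 to 0.96). The hormone ratio most like that of Pyy was Ghrl (0.78). These were the highest of 17072 correlations over 9 points.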

How the data were processed

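Whole-tissue RNA pools were measured on two-colour Agilent arrays, each pool pair in both dye orders. Per the labels' protocols, 500 ng of total RNA was amplified linearly and labelled. Per the file headers and the submitters' processing notes, spots were extracted with Agilent Feature Extraction 9.5.3, and the deposited mean, background and processed signals are intensity values on a linear scale. The LogRatio deposited by the authors is log10 of red over green. The deposited series table holds log2 ratios, found here to be KO over wild type with unstated centring beyond a slope near 1 on the scanner ratios and 47.8% to 72.2% of values exactly 0.

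From the mean signals, limma 3.58.1 (R 4.3.3) applied normexp (offset 50) and loess within arrays, with control spots at weight 0. Dye-swapped arrays were turned to KO over wild type and averaged per pair. The first 2 fetal small intestine pairs were merged, since their difference was below array noise. Kept probes were well above background on every array of some group in 1 genotype, and a gene with several was represented by its brightest. Gene names came from RefSeq accessions (23392 probes), current symbols (6720), older symbols (2915) or the file (8147), and probe coordinates are mm8 as in the files.

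One fit held a term for each group over 9 replicates (5 residual degrees of freedom), with two-sided moderated tests, Benjamini-Hochberg adjustment over 17072 genes and a threshold of 0.05. Wild type levels were log2 intensities after Aquantile scaling. Errors printed as ± are limma standard errors. Correlations of deviations gave no sign that replicate numbers paired the pools (-0.074 to 0.159 for the same number, -0.159 to 0.159 for other numbers). With so few pools they cannot exclude such pairing. Only the fit was tested by simulation, on replicate ratios with independent normal noise and the same change in every replicate. There the mean of the groups recovered 95.5% of 67 genes changed by log2 0.5, with 11 false calls. Normalization, merging of pairs and choice of probes were not simulated, nor were effects that differ between groups. The 10 hormones were given by name. The lists of markers, receptors, processing genes, peptides and transcription factors, and the alternatives, were chosen with earlier results of these data known. By the rule for names, up to 3 genes per list with the smallest adjusted p are named, with the 3 genes most like Pyy and Ghrl. Markers of other tissues are given beside results, and the other list members named were chosen after their values were seen. Promoter sequences are from RefSeq (GRCm38.p6), matched by symbol for 10 of 10 genes. Alternatives were the processed signals, no background subtraction, median centring, other filters, all probes, slide or replicate blocks, another prior, groups fitted alone, separate fetal pairs, the series table and leaving out pools.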

Additional observations from a re-analysis of the deposited data

Results flagged for a closer look

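In 3 genes the KO effect differed between adult and fetal colon by the test of the difference itself. For Pyy the difference was -0.66 ± 0.084 (log2, adult minus fetal colon, adjusted p = 0.0267), with ratios of 0.04, 0.27 and 0.18 in adult colon, against 0.84 and 0.81 in fetal colon. For the uroguanylin gene Guca2b it was 1.07 ± 0.155 (adjusted p = 0.0346), with ratios of 0.89, 1.08 and 1.09 in adult colon, against -0.26 and 0.17 in fetal colon. For the amidating enzyme gene Pam it was 0.71 ± 0.11 (adjusted p = 0.0398), with ratios of 0.11, 0.27 and -0.10 in adult colon, against -0.56 and -0.67 in fetal colon. The first fetal ratio of each gene comes from the pair labelled fetal colon 1, whose regional genes were those of small intestine. Without both fetal pairs that went against their labels, none of the 3 differences passed (Pyy -0.65, adjusted p = 0.232; Guca2b 0.85, adjusted p = 0.284; Pam 0.76, adjusted p = 0.242), where 0.00586% of all genes did. With 1 replicate left out, the Guca2b difference ran from 0.853 to 1.282 and passed in 2 of 9 fits, and that of Pam ran from 0.624 to 0.805 and passed in 1.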

How the results depend on the processing

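The number of all genes past the threshold moved with the setting. Of 17072 genes, 305 passed over the mean of the 4 groups as reported and 74 with median centring. With the trended and robust prior 0 passed, and 740 did with fetal small intestine pairs 1 and 2 kept separate. That setting counts 1 sample as 2, since the 2 pairs lay within array noise of each other. For wild type adult colon against adult small intestine, 506 passed as reported and 930 with pairs separate. Counts below are of the 10 hormone genes past the threshold. Over the mean of the 4 groups, 3 passed as reported, 1 with median centring, 0 with the trended and robust prior, 5 with fetal small intestine pairs 1 and 2 kept separate, 1 without the 2 fetal pairs that went against their labels, and 2 to 4 when 1 replicate was left out. In adult small intestine, 1 passed as reported, 0 with median centring, the replicate block, the trended prior, the group fitted alone or without the 2 fetal pairs, 2 with pairs separate and 0 to 1 with 1 replicate left out. In adult colon, 0 passed as reported and 1 with the mean of all kept probes. In fetal small intestine, 1 passed as reported, 0 with median centring, the trended prior or without the 2 fetal pairs, and 2 with pairs separate, where Ghrl passed (log2 1.036, adjusted p = 0.0251). In fetal colon, 1 passed as reported, 2 with processed signals, no background subtraction, the strict filter, the replicate block or pairs separate, 3 with the group fitted alone, 0 with median centring, the trended prior or without the 2 fetal pairs, and 1 to 2 with 1 replicate left out. For the difference between adult and fetal colon, 1 passed as reported and 0 with processed signals, median centring, the replicate block, the trended prior, the series table, the groups fitted alone or without the 2 fetal pairs, and 0 to 1 with 1 replicate left out.

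In wild type pools, adult colon against adult small intestine gave 1 as reported, 4 with processed signals, 0 with no filter or the replicate block, 2 with slide as a random block or the trended prior, 3 with pairs separate, 6 without the 2 fetal pairs or with the groups fitted alone, and 0 to 3 with 1 replicate left out. Fetal colon against fetal small intestine gave 0 as reported and 4 without the 2 fetal pairs. Adult against fetal small intestine gave 0 as reported and 1 with processed signals, no background subtraction, quantile scaling, the strict filter, all kept probes, the slide block, the trended prior or pairs separate, 2 without the 2 fetal pairs and 0 to 1 with 1 replicate left out. Adult against fetal colon gave 3 as reported, 0 with no filter or the replicate block, 1 with the strict filter or the groups fitted alone, and 0 to 2 with 1 replicate left out.

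Directions turned in these cases. With 1 replicate left out, Ghrl in adult colon ranged from -0.004 (without adult colon replicate 2) to 0.37. The Ghrl difference between adult and fetal small intestine was 0.051 with processed signals, 0.039 with the series table, 0.039 without adult small intestine replicate 1 and 0.359 without fetal small intestine replicate 1, with a leave-one-out range of -0.506 to 0.359. The wild type Pyy difference of fetal colon and fetal small intestine was -0.965 without fetal small intestine replicate 1 and -1.097 without fetal colon replicate 2 (range -1.097 to 1.4). That of Ghrl was -0.738 with the slide block, -0.197 with the replicate block, -0.33 with pairs separate, -2.119 without the 2 fetal pairs, -1.212 without fetal small intestine replicate 3 and -0.796 without fetal colon replicate 1 (range -1.212 to 1.434). The wild type Ghrl difference of adult and fetal small intestine was 0.22 without fetal small intestine replicate 1 (range -2.426 to 0.22), and that of Pyy for adult and fetal colon was -0.309 without the 2 fetal pairs and -0.309 without fetal colon replicate 1 (range -0.309 to 2.188). The cause was not tested. The other 182 counts stayed within 1.5 times the reported one, and 499 values of single genes kept their direction and side of the threshold, 71 lost a call and 14 gained one. Whether replicate numbers paired the pools could not be settled, so calls lost under the replicate block are given as they stand. The mean of the groups could not be fitted alone, and the series table was used for ratios. Few replicates and, for Gip in colon, signal near background limit these results.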
